A study of Mus musculus with 8 samples.

Results

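The data describe 35 genes of cell proliferation and DNA replication, out of 55471 genes counted, in heart tissue of TAZG197V and wild-type (WT) mice. The genes come from a list of names, with no threshold on their values, that was drawn up with earlier results of these data known. They comprise the cyclins and cyclin-dependent kinases of the cell cycle, the replication helicase and clamp, enzymes of deoxynucleotide supply, the transcription factors E2f1 and Foxm1, and genes of mitosis with the common proliferation marker Mki67. TAZG197V mice carry a glycine-to-valine knock-in, modelled on a patient mutation, in Tafazzin (gene symbol Taz), the enzyme that remodels the mitochondrial phospholipid cardiolipin. The knock-in was made with CRISPR/Cas9 in C57BL/6N zygotes and the edited animals were crossed with C57BL6/J. Controls were WT mice, and no mouse of either genotype was treated. The mice were 14 weeks old, and the study's results state that only males hemizygous for the mutation were used, whereas its methods and the labels speak of homozygous offspring, and the labels give no sex for a single mouse. The constitutive mutation is present in every cell type, and a whole-tissue RNA sample mixes them. RNA was sequenced from a small piece of heart of each of 4 WT and 4 TAZG197V mice, with one library per mouse.

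A cell that divides passes from G1, in which D-type cyclins bind Cdk4 and Cdk6, into S phase, in which the Mcm2 to Mcm7 helicase and the Pcna clamp act at replication origins and forks, and then into mitosis, which is driven by Cdk1 with B-type cyclins. Many of these transcripts are made only in dividing cells, where E2F proteins switch on the replication genes and the MuvB complex with Foxm1 switches on the mitotic genes. Cardiomyocytes of the adult mouse heart have largely left the cell cycle, while endothelial cells, fibroblasts and blood cells in the tissue can still divide. In a whole-tissue sample, fewer cells of a type and less RNA per cell cannot be told apart.

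Promoter sequences were available in RefSeq (GRCm38.p6) for 29 of the 35 members, as 250 bases before to 50 bases after the gene start. They were searched on both strands for letters that E2F proteins read (TTTCCCGC, TTTGGCGC or TTTCGCGC), for the cell cycle genes homology region (CHR, TTTGAA) read by MuvB complexes, and for the CCAAT box (CCAAT), and matches that overlapped were all counted. E2F letters stood in 6 of 29 members, or 20.7%, against 2.12% of the 27025 genes with a promoter entry. Those members were Mcm3, Mcm5, Mcm6, Mcm7, Cdk1 and Cdk2. CHR letters stood in 11 of 29 members (37.9%) against 20.2% of all genes, and the CCAAT box in 22 of 29 (75.9%) against 41.1%. The 4 promoters printed here belong to members whose transcripts differed between the genotypes in opposite directions, Mcm7 being the one that was higher in TAZG197V and Mcm2, Cdk2 and Cenpa the ones that were lower. Capitals mark the letters searched for.
Mcm7, chr5:138171834-138172133, minus strand: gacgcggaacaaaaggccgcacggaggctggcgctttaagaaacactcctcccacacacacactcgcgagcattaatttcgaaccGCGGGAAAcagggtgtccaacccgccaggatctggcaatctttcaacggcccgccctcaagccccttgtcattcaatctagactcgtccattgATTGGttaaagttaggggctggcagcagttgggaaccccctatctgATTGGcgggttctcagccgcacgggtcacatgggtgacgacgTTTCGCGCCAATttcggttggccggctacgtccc
Mcm2, chr6:88898731-88899030, minus strand: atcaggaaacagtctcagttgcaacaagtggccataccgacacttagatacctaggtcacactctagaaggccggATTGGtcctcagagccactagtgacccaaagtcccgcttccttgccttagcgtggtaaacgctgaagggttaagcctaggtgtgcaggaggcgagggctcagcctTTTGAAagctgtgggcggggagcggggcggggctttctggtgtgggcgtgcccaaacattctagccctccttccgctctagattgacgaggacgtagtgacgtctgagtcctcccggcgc
Cdk2, chr10:128705002-128705301, minus strand: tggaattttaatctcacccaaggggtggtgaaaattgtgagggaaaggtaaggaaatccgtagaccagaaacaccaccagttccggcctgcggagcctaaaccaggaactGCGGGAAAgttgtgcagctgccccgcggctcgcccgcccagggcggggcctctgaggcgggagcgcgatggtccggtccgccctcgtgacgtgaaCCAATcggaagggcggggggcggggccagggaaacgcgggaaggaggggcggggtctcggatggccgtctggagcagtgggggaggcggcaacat
Cenpa, chr5:30666636-30666935, plus strand: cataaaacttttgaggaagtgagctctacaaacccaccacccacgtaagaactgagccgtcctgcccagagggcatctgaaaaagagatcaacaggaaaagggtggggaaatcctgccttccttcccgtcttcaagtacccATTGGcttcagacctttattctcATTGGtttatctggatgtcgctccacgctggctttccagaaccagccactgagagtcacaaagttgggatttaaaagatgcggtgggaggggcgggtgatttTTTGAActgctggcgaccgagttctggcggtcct
Mcm7 and Cdk2 held E2F letters, and Mcm2 and Cenpa held CHR letters instead. A CCAAT box stood in each of the 4. Mcm7 had a further RefSeq start, whose promoter held a CCAAT box alone. Of the other called members with an entry, Rrm1 held CCAAT boxes, and Cdk4 and Tk1 held none of these letters. Such matches describe the sequence and do not show binding.

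Total counts ranged from 23055689 to 36301031 per library. Taz itself was transcribed in every library, at 58.7 to 63.8 CPM (counts relative to library size after TMM scaling) in WT and 44.3 to 50.4 CPM in TAZG197V, a log2 fold change of -0.37 (SE 0.0551, edgeR adjusted p = 0.00124). Heart muscle transcripts were abundant in all 8 libraries. Some libraries stood apart in other cell types. WT 4 held 44112 CPM of summed red cell and erythroid markers against 182 to 855 in the other 7 libraries, 55.8 CPM of lymphocyte markers against 0.623 to 3.5, and 50.7 CPM of neutrophil markers against 0.293 to 3.38, although Ly6g, Mmp8 and Camp of the last list were at 0 in some libraries. Both number 4 libraries held neuron and glia markers, at 63.0 CPM in WT 4 and 142.5 CPM in TAZG197V 4 against 4.13 to 7.78 in the other 6. WT 2 had the most fibroblast markers, at 1252 CPM against 503 to 798.

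To ask which proliferation genes differed between the genotypes, all 15084 genes with enough counts were tested together, and a gene was called when its edgeR adjusted p was under 0.05, its fold change passed a small minimum and its mean count was at least 50. Of the 35 members 34 were tested, 4 were called higher in TAZG197V (Ccnd2, Cdk4, Mcm7 and Rrm1), 5 were called lower (Ccnd1, Cdk2, Mcm2, Tk1 and Cenpa), and 25 were not called. These 9 were 26.5% of the members tested, where 33.5% of all genes tested were called, 18.5% higher and 15.1% lower. A mean count of 50 was reached by 22 members, of which 40.9% were called, the same share as the 40.9% among all genes that reached it. The median log2 fold change was -0.02 over the members and -0.01 over all genes, and 16 members had positive and 18 negative values. The genotypes did not overlap in 9 members, 8 of them called, against 33.2% of all genes tested. Summed over the 35 members, WT libraries held 442 ± 19.6 CPM and TAZG197V libraries 809 ± 95.7 CPM (SD, n = 4 each), and without Ccnd2 it was 310.4 ± 11.6 and 276 ± 20.2 CPM. Without WT 4, 9 members were called, and without both number 4 libraries 8. Libraries 1 and 2 of each genotype were run in lane 7 and libraries 3 and 4 in lane 8. For the 8 called members without overlap the direction within a lane follows from that, and Cdk4, which overlapped, had log2 ratios of 0.16 in lane 7 and 0.28 in lane 8 (TAZG197V to WT, 2 libraries per genotype and lane).

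**Figure D1:**
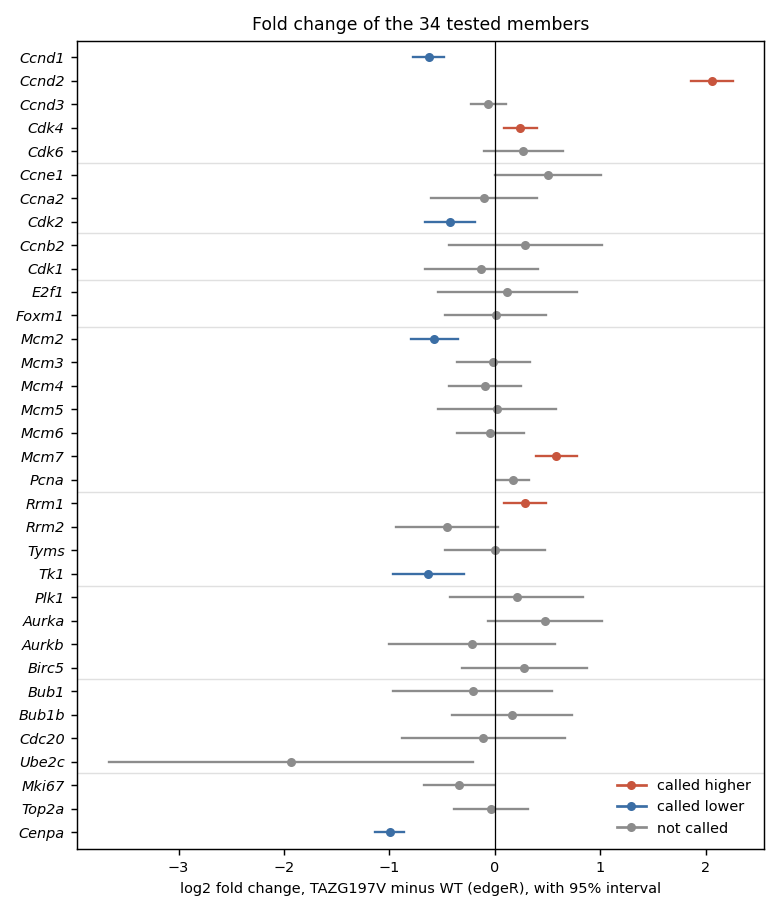
Log2 fold change of the 34 tested members (TAZG197V minus WT, horizontal axis, edgeR) with 95% intervals that are not adjusted for the number of genes. Rows follow the members' roles from G1 to mitosis. Red points were called higher, blue points lower and grey points not called. Ccnd2 lies at 2.06 and Cenpa at -0.99, and 21 of the 34 intervals include 0.

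The levels of the members differed widely. Per kb of exon, Ccnd2 was the most abundant member in WT at 14.0 CPM per kb, followed by Cdk4 at 11.6, Ccnd1 at 10.4, Cenpa at 7.18, Pcna at 5.44 and Ccnd3 at 4.2. The ranges of Ccnd2, Cdk4 and Ccnd1 overlapped across the WT libraries, while those of Cenpa, Pcna and Ccnd3 did not overlap with their neighbours in this order. In 19 members the mean was under 1 CPM per kb in both genotypes, and these included most genes of mitosis. A member was taken as near zero when its mean was under 0.5 CPM in both genotypes, which held for Ccnb1 and Bub1. Plk1 narrowly missed this rule, with means of 0.421 CPM in WT and 0.503 CPM in TAZG197V. Ccnb1, the main cyclin partner of Cdk1 in mitosis, had 1 to 10 counts in the WT libraries and 3 to 11 in the TAZG197V libraries, and was too sparse to be tested. Bub1, a kinase of the spindle checkpoint, had 9 to 21 and 6 to 15 counts. All 35 members had at least 1 count in every library. Counting error is large at such levels. For Bub1 the 95% interval of the log2 fold change ran from -0.96 to 0.54, so changes within it were not excluded. Its mean count of 11.4 was under 50, which barred it from a call.

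**Figure D2:**
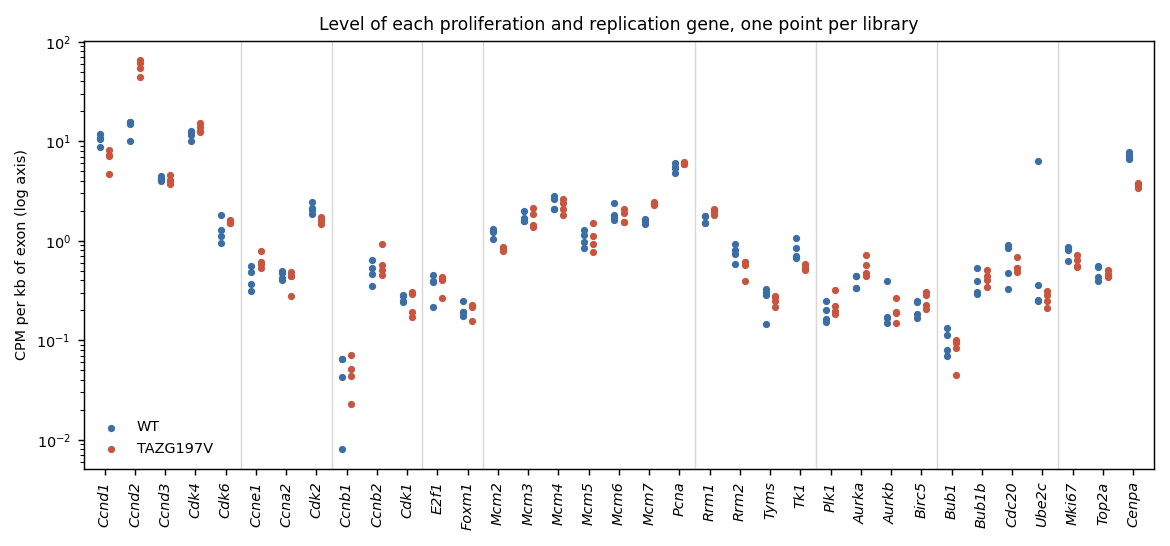
Level of each of the 35 members in CPM per kb of exon (vertical log axis), with one point per library, WT in blue and TAZG197V in red, and grey lines between the roles. The D-type cyclins, Cdk4, Pcna and Cenpa lie above the other members, Ccnb1 and Bub1 lie lowest, and one WT point of Ube2c, from WT 4, lies far above the other 7.

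Among the D-type cyclins, which activate Cdk4 and Cdk6 in G1, one member rose and another fell. Ccnd2 (ENSMUSG00000000184, chromosome 6, 127125162 to 127152193, mm10) stood at 139.9, 146, 146 and 94.7 CPM in WT 1 to WT 4 and at 615, 579, 518 and 421 CPM in TAZG197V 1 to TAZG197V 4. All 4 TAZG197V libraries lay above all 4 WT libraries, and WT 4 was the lowest of all. The means were 132 ± 24.8 and 533 ± 84.9 CPM (SD, n = 4 each), a ratio of 4.05, and the log2 fold change was 2.06 (SE 0.0868, edgeR adjusted p = 2.39e-06). Over 17 alternative fits it ranged from 1.91 to 2.11.

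Ccnd1 (ENSMUSG00000070348, chromosome 7, 144929931 to 144939925) stood at 49.8, 50.3, 55.5 and 40.9 CPM in WT and at 34.3, 38.9, 33.8 and 22.2 CPM in TAZG197V. The genotypes did not overlap, although WT 4 and TAZG197V 2 lay close to each other. The log2 fold change amounted to -0.62 (SE 0.0639, edgeR adjusted p = 0.000208), and it fell in 17 of 17 alternative fits, by 0.52 to 0.68 on the log2 scale. Exons of other genes cover 23.4% of its exon bases, mainly of LTO1, which was also called lower, at -0.28. Reads from the shared part cannot be told apart if the counting ignored strand, which was not stated.

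Ccnd3 (ENSMUSG00000034165), the D-type cyclin with the lowest level per kb in both genotypes, had 36.9 ± 1.87 CPM in WT and 35.8 ± 3.08 CPM in TAZG197V, with a 95% interval of -0.23 to 0.10 for its log2 fold change. Per kb of exon, Ccnd2 made up 43.3% to 51.2% of the D-type cyclin transcripts in the WT libraries and 82.8% to 85.3% in the TAZG197V libraries. The share of Ccnd1 was 35.2% to 37.4% in WT and 8.85% to 11.1% in TAZG197V. The sum of the 3 cyclins was 28.6 ± 3.7 and 67.6 ± 10.6 CPM per kb (SD, n = 4 each). These shares were chosen after the values were seen and were not tested.

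**Figure D3:**
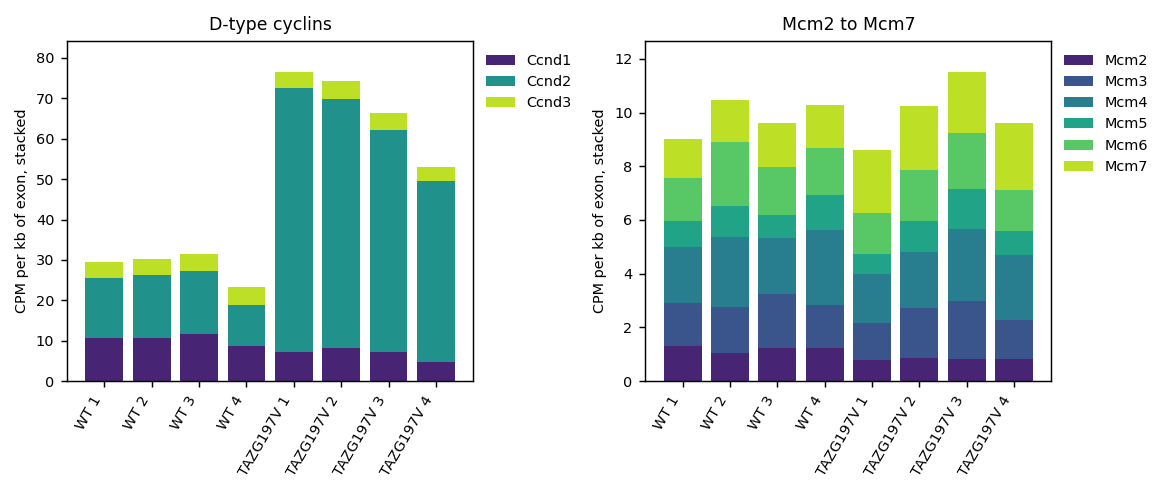
Stacked levels in CPM per kb of exon (vertical axes, from 0) in the 8 libraries, for the D-type cyclins (left) and for Mcm2 to Mcm7 (right). The D-type cyclin sum is 23.2 to 31.5 in the WT libraries and 53.1 to 76.6 in the TAZG197V libraries, and the Ccnd2 segment is the one that grew. The Mcm sum is 9.03 to 10.5 in WT and 8.62 to 11.5 in TAZG197V.

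The kinases of the G1 cyclins differed less. Cdk4 (ENSMUSG00000006728, chromosome 10, 127063534 to 127067920) had 40.5, 40.8, 37.3 and 32.7 CPM in WT and 41.6, 49.2, 44.8 and 40.3 CPM in TAZG197V, and the genotypes overlapped. It was called higher at a log2 fold change of 0.24 (SE 0.0685, edgeR adjusted p = 0.0236). Over the 17 alternative fits the log2 fold change ran from 0.16 to 0.29, and the call was lost in 8 of them, among them those without WT 2 (adjusted p = 0.0535, edgeR), WT 4 (0.121), TAZG197V 2 (0.0691) or TAZG197V 4 (0.0697). Other genes, mainly Tspan31, share 19.7% of the exonic sequence of Cdk4, and Tspan31 was called higher at 0.34.

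Cdk6 (ENSMUSG00000040274) had 15.7, 18.1, 13.2 and 25.5 CPM in WT and 22.3, 21.3, 22.7 and 21 CPM in TAZG197V. WT 4 was the highest library of all, and the other 3 WT libraries lay below every TAZG197V library. Its log2 fold change of 0.27 was not called (SE 0.164, edgeR adjusted p = 0.222), whereas it was 0.47 without WT 4 (adjusted p = 0.00945, edgeR) and 0.46 without TAZG197V 4 (adjusted p = 0.0152, edgeR), both past the threshold. The markers of other cell types in WT 4 and TAZG197V 4 are given above, and their part in this value was not tested.

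At the step from G1 to S phase, Cdk2, the partner of the E- and A-type cyclins, fell, while its cyclins were not called. Cdk2 (ENSMUSG00000025358, chromosome 10, 128697939 to 128705031) stood at 11.6, 13.2, 12.7 and 15.4 CPM in WT and at 9.08, 10.1, 10.7 and 9.72 CPM in TAZG197V, with no overlap. The means were 13.2 ± 1.56 and 9.9 ± 0.673 CPM (SD, n = 4 each) and the log2 fold change was -0.43 (SE 0.103, edgeR adjusted p = 0.0126). It was called in 17 of 17 alternative fits. Ccne1 (cyclin E1) had 25 to 38 counts in the WT libraries and 39 to 58 in the TAZG197V libraries. At 0.51, its log2 fold change had a 95% interval of 0.01 to 1.01 (edgeR adjusted p = 0.1), and its mean count was under 50. Ccna2 (cyclin A2) had 1.82 ± 0.174 and 1.68 ± 0.382 CPM, with an interval of -0.61 to 0.40.

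Transcripts of the transcription factors E2f1 and Foxm1 were scarce. E2f1 had 20 to 52 counts per library in WT and 23 to 51 in TAZG197V, at a log2 fold change of 0.12 (95% interval -0.54 to 0.78). Foxm1, the activator of mitotic genes, had 26 to 40 and 25 to 47 counts, at 0.01 (-0.47 to 0.49). Neither was called.

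In the replication helicase, which is loaded on origins as a ring of 6 different subunits, Mcm2 fell and Mcm7 rose. Mcm2 (ENSMUSG00000002870, chromosome 6, 88883474 to 88898780), whose promoter is printed above, stood at 9.2, 7.28, 8.7 and 8.62 CPM in WT and at 5.45, 5.99, 5.84 and 5.79 CPM in TAZG197V. Every TAZG197V library lay below every WT library. The log2 fold change was -0.58 (SE 0.0974, edgeR adjusted p = 0.00242).

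Mcm7 (ENSMUSG00000029730, chromosome 5, 138164583 to 138172422) stood at 6.46, 6.93, 7.26 and 7.14 CPM in WT and at 10.4, 10.5, 10.1 and 10.9 CPM in TAZG197V. Here the TAZG197V libraries were the higher ones, again with no overlap, and the SDs were 0.353 (WT) and 0.343 (TAZG197V) CPM. The log2 fold change was 0.59 (SE 0.0858, edgeR adjusted p = 0.0012). Both Mcm2 and Mcm7 were called in 17 of 17 alternative fits. Of the 50-base windows of Mcm7 transcripts 23.3% also occur in other genes, mostly in Gm5487, so its count is less certain than that of Mcm2, with 0.712%.

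The other 4 subunits were not called. Their log2 fold changes were -0.01 for Mcm3 (95% interval -0.36 to 0.33), -0.09 for Mcm4 (-0.44 to 0.25), 0.02 for Mcm5 (-0.54 to 0.58) and -0.04 for Mcm6 (-0.36 to 0.28). Together the 6 subunits amounted to 9.85 ± 0.664 (WT) and 9.99 ± 1.22 (TAZG197V) CPM per kb (SD, n = 4 each). Within this sum Mcm2 took 9.99% to 14.6% in the WT libraries and 7.29% to 9.09% in the TAZG197V libraries, and Mcm7 took 14.9% to 17.1% and 19.7% to 27.1%. Shares are given for the called subunits alone and were not tested. Pcna (ENSMUSG00000027342), the sliding clamp of the DNA polymerases, had 13.0 ± 1.23 and 14.4 ± 0.355 CPM, and its log2 fold change of 0.17 was not called (95% interval 0.02 to 0.33, edgeR adjusted p = 0.0749).

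Enzymes that supply deoxynucleotides differed in both directions. Rrm1 (ENSMUSG00000030978, chromosome 7, 102441695 to 102469771), the large subunit of ribonucleotide reductase, had 16.5, 19.6, 16.7 and 19.5 CPM in WT and 20.2, 22.4, 23.2 and 21.6 CPM in TAZG197V. The genotypes did not overlap, but the gap between them was smaller than the SD within either. This amounted to a log2 fold change of 0.29 (SE 0.0881, edgeR adjusted p = 0.0332). Its log2 fold change stayed between 0.25 and 0.33 in the 17 alternative fits, and the call was lost in 5 of them, namely with DESeq2 (adjusted p = 0.0531) and without WT 1 (0.0753, edgeR), WT 3 (0.0865), TAZG197V 2 (0.0846) or TAZG197V 3 (0.0562). Rrm2, the small subunit that is made in S phase, had 2.11 ± 0.382 and 1.52 ± 0.291 CPM and was not called (log2 fold change -0.45, 95% interval -0.94 to 0.03).

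Tk1 (ENSMUSG00000025574, chromosome 11, 117815526 to 117826092), the thymidine kinase of S phase, stood at 3.48, 3.68, 4.39 and 5.58 CPM in WT and at 2.72, 2.67, 3.07 and 2.86 CPM in TAZG197V. All TAZG197V libraries were below the WT libraries, of which WT 4 was the highest. The log2 fold change was -0.63 (SE 0.148, edgeR adjusted p = 0.011), and without both number 4 libraries it was -0.45 and no longer called (adjusted p = 0.0557, edgeR). Tyms, thymidylate synthase, had 20 to 63 counts in the WT libraries, with the fewest in WT 4, and 36 to 63 in the TAZG197V libraries. Its log2 fold change was 0.003 with an interval of -0.47 to 0.48.

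**Figure D4:**
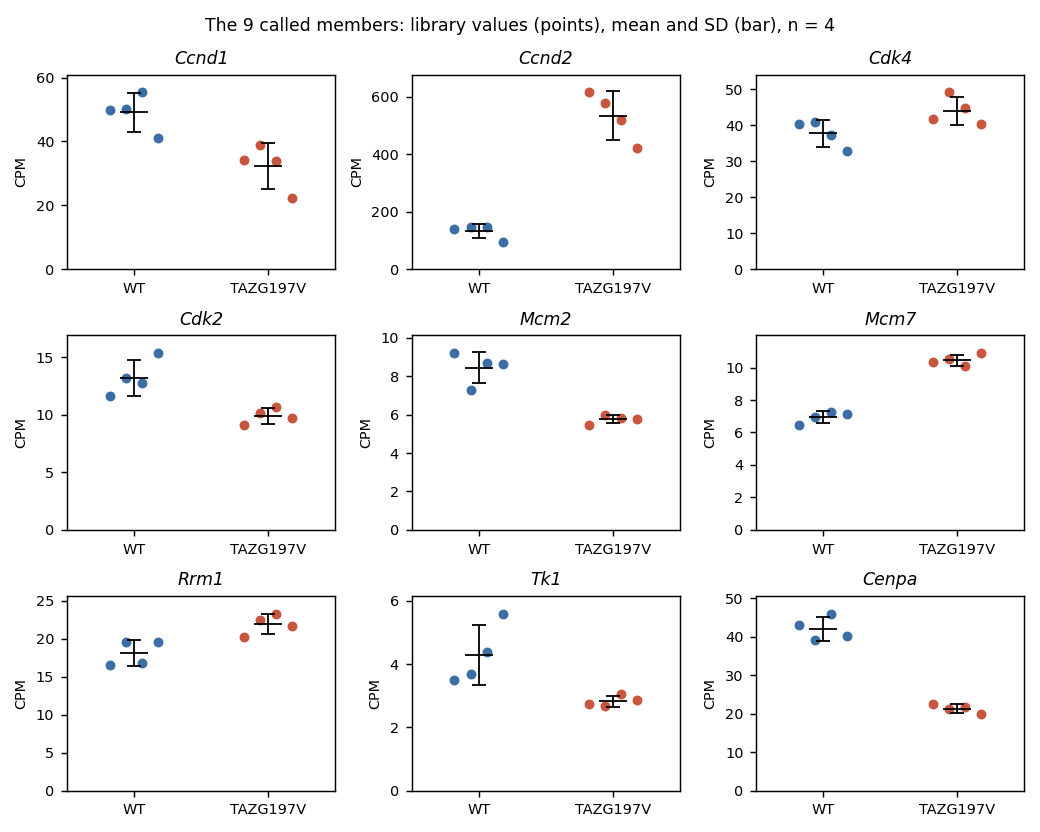
CPM (vertical axes, from 0) of the 9 called members, with one point per library in replicate order, WT in blue and TAZG197V in red, and black bars for the mean and SD (n = 4 each). The genotypes overlap in Cdk4 and in none of the other 8.

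In the genes of mitosis, Cenpa fell and none of the other 12 mitotic members tested was called by edgeR or DESeq2, where 33.5% of all genes tested were called by edgeR. A mean count under 50 barred 8 of the 12 from a call. Of these 12, 2 were at an unadjusted edgeR p under 0.05 (Mki67 and Ube2c) and 1 by DESeq2 (Ube2c). Cenpa (ENSMUSG00000029177, chromosome 5, 30666777 to 30674830) encodes the histone H3 variant that marks centromeres and persists in cells that no longer divide. It stood at 43.1, 39.1, 45.9 and 40.1 CPM in WT and at 22.4, 21.2, 21.8 and 19.8 CPM in TAZG197V. The genotypes were far apart relative to their SD of 3.08 and 1.1 CPM. The ratio of the means was 0.507 and the log2 fold change -0.99 (SE 0.0598, edgeR adjusted p = 1.5e-05), the smallest adjusted p of a member after Ccnd2. It lay between -1.02 and -0.96 in the 17 alternative fits. No exon base of Cenpa lies in another gene, and 1.54% of its 50-base windows occur elsewhere.

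Mki67 (ENSMUSG00000031004, chromosome 7, 135689784 to 135716361), which coats mitotic chromosomes and is the common marker of cycling cells, had 6.36, 8.71, 8.23 and 8.17 CPM in WT and 5.56, 6.48, 7.29 and 5.46 CPM in TAZG197V. The genotypes overlapped through WT 1. Its log2 fold change of -0.34 was not called (SE 0.145, 95% interval -0.67 to -0.01, edgeR adjusted p = 0.0979), and without WT 1 it was -0.43 and called (adjusted p = 0.0481, edgeR). Top2a, the topoisomerase of replicating and mitotic chromosomes, had 4.33 ± 0.728 and 4.18 ± 0.291 CPM, at -0.03 (-0.38 to 0.32).

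Cdk1, the kinase of mitosis, had 27 to 51 counts in WT and 23 to 53 in TAZG197V, at a log2 fold change of -0.13 (95% interval -0.67 to 0.41). Ccnb2, a B-type cyclin, was at 0.29 (-0.43 to 1.01). Among the mitotic kinases and their partners, Aurka was at 0.48 (-0.06 to 1.02), Aurkb at -0.22 (-1.0 to 0.57), Plk1 at 0.21 (-0.43 to 0.84) and the survivin gene Birc5 at 0.28 (-0.31 to 0.87). Aurka did not overlap between the genotypes, at 0.852 to 1.12 CPM in WT and 1.13 to 1.81 CPM in TAZG197V, but its adjusted p was 0.144 (edgeR). Of the checkpoint genes, Bub1 was at -0.21 (-0.96 to 0.54), Bub1b at 0.16 (-0.41 to 0.73) and Cdc20, an activator of the anaphase-promoting complex, at -0.11 (-0.88 to 0.66). These intervals are wide and do not show that the genotypes were alike. Most of these genes had fewer than 50 counts per library on average, and what set the widths was not tested. Summed over the 12 mitotic members other than Cenpa and Ube2c, WT libraries held 20.5 ± 2.78 CPM and TAZG197V libraries 19.2 ± 2.0 CPM (SD, n = 4 each).

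Ube2c (ENSMUSG00000001403, chromosome 2, 164769898 to 164778822), the ubiquitin-conjugating enzyme of the anaphase-promoting complex, was set by one library. It had 371 counts in WT 4, and the other 7 libraries had 15 to 34, that is 16.6 CPM against 0.545 to 0.934 CPM. Its log2 fold change of -1.94 was not called (SE 0.753, edgeR adjusted p = 0.074), it was -0.14 without WT 4 (adjusted p = 0.706, edgeR), and it was called at -2.26 without WT 3 (adjusted p = 0.0387, edgeR). WT 4 was also the library with the red cell, lymphocyte and neutrophil markers, whose part in the Ube2c value was not tested. Of the Ube2c exon bases 22.8% lie in other genes, among them Tnnc2, which had at most 1 count in any library.

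The other genes of DNA replication and cell division were taken from lists of 113 genes, of which 107 were tested and 25 called, 15 higher and 10 lower. This was 23.4% of those tested, below the 33.5% of all genes tested, and 30.9% of those with a mean count of at least 50, against 40.9% of all such genes. Without WT 4, 24 were called. In the replisome and its polymerases 7 of 26 genes were called higher, or 26.9%, where 18.5% of all genes tested were. None was called lower by edgeR or DESeq2, but Gins1, a subunit of the GINS complex of the active helicase, was at -0.57 with an edgeR adjusted p of 0.0476 (unadjusted p = 0.018) and missed a call through its mean count of 44.8. It was the 1 gene of the list with a lower value at an unadjusted edgeR p under 0.05, and DESeq2 had 0. Positive log2 fold changes stood in 22 of 26 (median 0.15, against -0.01 over all genes). The 3 with the largest values were Rfc3 at 0.74, a subunit of the clamp loader, Cdc45 at 0.54, which joins the Mcm ring in the active helicase, and Rfc4 at 0.52. Rfc3 had 3.4 ± 0.704 CPM in WT and 5.5 ± 0.966 CPM in TAZG197V (edgeR adjusted p = 0.00487). Of the 8 tested genes of origin recognition and helicase loading or its control, 1 (12.5%, against 33.5% of all genes tested) was called, the origin recognition subunit Orc2, higher at 0.36, with 29.8% of its exon bases in other genes.

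In deoxynucleotide supply 2 of 8 further genes were higher and 2 lower, which together is 50% against 33.5% of all genes tested. Dctd, the deoxycytidylate deaminase, had 0.778, 0.907, 1.01 and 1.29 CPM in WT and 5.34, 4.05, 3.9 and 3.89 CPM in TAZG197V, at a log2 fold change of 2.07 (SE 0.207, edgeR adjusted p = 0.000186). Its size was close to that of Ccnd2, at a far lower level. Dut, which removes dUTP, was lower at -0.44, and thymidylate kinase, Dtymk, higher at 0.34.

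Of 7 tested inhibitors of cyclin-dependent kinases, Cdkn1a rose and Cdkn1c fell, which is 28.6% called against 33.5% of all genes tested. Cdkn1a, which restrains Cdk2 and also assembles with D-type cyclins, had 18, 19.7, 33.2 and 31.4 CPM in WT and 112, 117, 159.9 and 149.6 CPM in TAZG197V. It changed by 2.34 on the log2 scale (SE 0.187, edgeR adjusted p = 6.28e-05), the largest value among the tested members and these further genes. Cdkn1c was lower at -0.36 (edgeR adjusted p = 0.0438), and 30.7% of its exon bases lie in other genes. Of 12 other tested cyclins, phosphatases and regulators, Mnat1 was higher at 0.59, a subunit of the kinase that activates cyclin-dependent kinases, and Ccng1 lower at -0.50, or 16.7% called against the same 33.5%. Among 16 tested Rb, E2F and MuvB genes, E2f5 was lower at -0.43, E2f6 lower at -0.29 and E2f3 higher at 0.28, or 18.8% called.

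In the spindle, kinetochore and cytokinesis genes 2 of 30 were higher and 4 lower, which together is 20% against 33.5% of all genes tested. Cenpf, a kinetochore protein, had 29, 20.6, 20.9 and 63.8 CPM in WT and 6.43, 8.42, 10.6 and 14.4 CPM in TAZG197V. It was highest in WT 4, yet the other 3 WT libraries also lay above every TAZG197V library. Its log2 fold change was -1.75 (SE 0.197, edgeR adjusted p = 0.000336), and -1.33 without WT 4 (adjusted p = 0.00113, edgeR). Spc24, a part of the Ndc80 complex at the kinetochore, was lower at -1.0 and the spindle motor Kif11 higher at 0.56. The calls of Cdkn1c, E2f5 and Kif11 were the least stable of those named, and were made in 8, 6 and 3 of 17 alternative fits.

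The genes E2f2, Cdc25b and Nusap1 were singled out after their values were seen, and like Ube2c were far higher in WT 4 than in any other library. E2f2 had 422 counts in WT 4 against 9 to 38 in the other 7 libraries, Cdc25b had 844 against 80 to 248, and Nusap1 had 324 against 37 to 90. With all libraries none was called by edgeR, at adjusted p of 0.102, 0.0546 and 0.121, and Cdc25b was called in 2 of 17 alternative fits. Without WT 4 their log2 fold changes were 0.04, -0.49 and -0.14, none of them called (edgeR adjusted p of 0.952, 0.114 and 0.718). With Ube2c they were the genes of both sets in which WT 4 stood farthest above the rest.

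**Figure D5:**
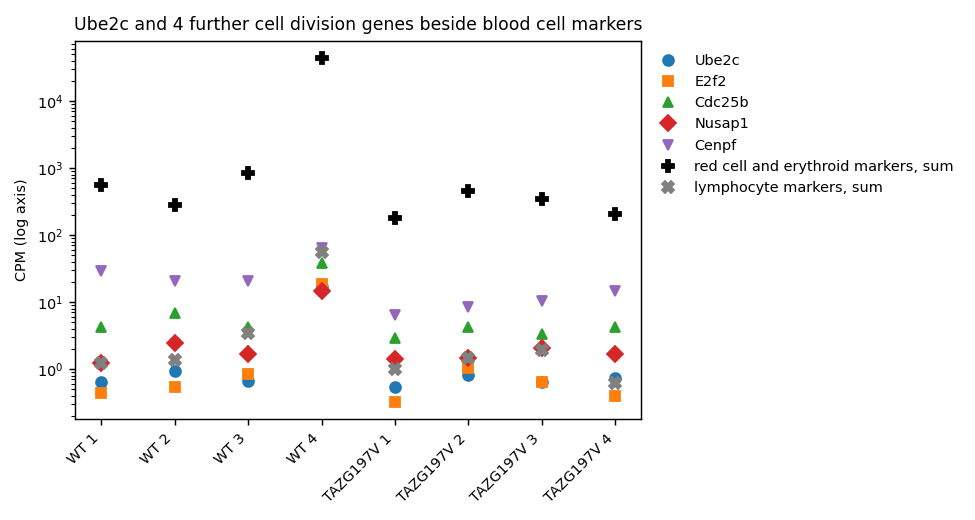
CPM (vertical log axis) of Ube2c, E2f2, Cdc25b, Nusap1 and Cenpf in each library, with the summed CPM of the red cell and erythroid markers and of the lymphocyte markers. Each series is highest in WT 4, where Ube2c reaches 16.6 CPM and the red cell and erythroid sum 44112 CPM.

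Markers of the resident cells of the heart also differed between the genotypes in part. Of the lists, 3 of 6 cardiomyocyte markers, 3 of 5 fibroblast markers, 3 of 5 mural markers and 2 of 6 endothelial markers were called lower in TAZG197V, where 15.1% of all genes tested were, and neither edgeR nor DESeq2 called any of these 22 higher, also at an unadjusted p under 0.05 (0 genes). Both endothelial calls were unstable, with Kdr called in 5 and Cdh5 in 11 of 17 alternative fits (highest edgeR adjusted p of 0.344 and 0.0964, each without TAZG197V 4). Of the macrophage markers 0 of 5 were called by edgeR or DESeq2, where edgeR called 33.5% of all genes tested in either direction. Among these 5 markers, 1 (C1qa) was at an unadjusted p under 0.05 by both edgeR and DESeq2. The summed fibroblast markers were 751 to 1252 CPM in WT and 503 to 697 CPM in TAZG197V, the mural markers 687 to 925 and 594 to 662 CPM, the endothelial markers 1111 to 1559 and 982 to 1225 CPM, and the cardiomyocyte markers 54369.9 to 60976 and 45493 to 49684 CPM. Their part in the lower values of Ccnd1, Cdk2, Mcm2, Tk1 and Cenpa was not tested.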

How the data were processed

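RNA from 8 hearts was sequenced, and per the labels and methods the authors demultiplexed 50-base single-end reads (bcl2fastq 2.20.0), aligned them to mm10 with STAR 2.7.3a and summed the reads on each gene's exons with featureCounts. What they deposited are raw, unscaled counts for every Ensembl gene. The annotation release, strand setting and treatment of multiply aligned reads are not given in the sources used here. Counting of overlapping genes and near-identical copies is therefore uncertain.

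Symbols and positions came from GENCODE M21, which named 55230 of 55471 gene rows. The 92 spike-in rows summed to 0 and were left out. Counts were fitted in R 4.3.3 with edgeR 4.0.16 (filterByExpr, TMM, quasi-likelihood F-test, two-sided) with 2 surrogate variables (sva 3.50.0, genotype protected, seed 1) and Benjamini-Hochberg adjustment over 15084 genes. A gene was called at an adjusted p under 0.05, a fold change beyond 1.15 and a mean size-factor-scaled count of at least 50. Scripts were tested on simulated counts. Libraries of the same genotype were not repeats of each other, with a chi-square of at least 10.2 per gene. Labels do not state how the mice relate to each other beyond genotype. The p-values of this fit therefore measure the spread between these samples that the 2 surrogate variables left.

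The 35 members, the 113 further genes and the marker lists were chosen with earlier results of these data known. All members were reported, and from the further lists the called genes with the largest change, at most 3 a list. Alternatives were DESeq2 1.42.0, other scaling, covariates, filters and thresholds, and omission of libraries.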

Additional observations from a re-analysis of the deposited data

Results flagged for a closer look

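Within each genotype, a library was set aside for a closer look when its gap to the nearest of the other 3, divided by the range of all 4, passed Dixon's 95% criterion. Of 94 such sets of 4 values (35 members, Taz and 11 marker sums in each genotype) 14 passed, and chance passes about 1 in 20, or 4.7 of 94. Among the members, Ube2c in WT 4 had a gap of 0.982 of the range (16.6 CPM against 0.643 to 0.934 in the other WT libraries). Aurkb in WT 3 had 0.907 (1.17 CPM against 0.44 to 0.507), Foxm1 in TAZG197V 1 had 0.885 (0.908 CPM against 1.25 to 1.29), and Ccnd2 in WT 4 had 0.879 (94.7 CPM against 139.9 to 146).

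The other 10 concerned summed markers. In WT 4 the gaps were 0.987 for red cell and erythroid, 0.958 for lymphocyte, 0.947 for neuron and glia and 0.94 for neutrophil markers, each the highest of the WT libraries. In TAZG197V 4 they were 0.992 for neuron and glia, 0.968 for adipocyte and 0.939 for developing brain markers, again the highest. In WT 2 they were 0.906 for fibroblast and 0.842 for adipocyte markers, and in WT 3 0.859 for endothelial markers. Of the developing brain markers, Nes went the other way, at 28.5 CPM in TAZG197V 4, the lowest of its genotype.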

How the results depend on the processing

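Under the alternatives run, 7 to 9 of the 34 or 35 members tested were called, and 3675 to 4816 genes, 7 to 9 members and 20 to 25 of the further genes when each library was left out in turn, except where a fold change of at least 1.5 was required. That threshold left 1843 genes, 5 members (Ccnd1, Ccnd2, Mcm7, Tk1 and Cenpa) and 6 of the further genes called, and Taz, at -0.37, was no longer called because its fold is smaller. Ccnd1, Ccnd2, Cdk2, Mcm2, Mcm7 and Cenpa were called in each of 17 alternatives that kept the thresholds, Tk1 in 16, Rrm1 in 12 and Cdk4 in 9. Besides the library omissions given in the report, Cdk4 lost its call without surrogate variables, with lane as covariate, without the low-count filter and without both number 4 libraries (adjusted p from 0.0643 to 0.099, edgeR), and Cdk6 gained one without the filter and without both number 4 libraries. The cause was not tested. No alternative moved the median log2 fold change of all genes by more than 0.013. Same-numbered libraries of the genotypes had correlations of their deviations of 0.277, 0.0436, 0.28 and 0.416, against -0.464 to 0.317 for different numbers. Since pairing was taken to need every value over 0.1, and WT 3 correlated best with TAZG197V 2, the numbers were not treated as pairs. With the replicate number as a replicate block, 4272 genes, 9 members and 22 of the further genes were called.

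Several members that were not called changed sign. With 1 library left out, the log2 fold changes ran from -0.11 to 0.028 for Ccnd3, -0.20 to 0.052 for Ccna2, -0.0197 to 0.48 for Ccnb2, -0.22 to 0.0027 for Cdk1, -0.045 to 0.28 for E2f1, -0.051 to 0.13 for Foxm1, -0.12 to 0.072 for Mcm3, -0.18 to 0.0053 for Mcm4, -0.15 to 0.20 for Mcm5, -0.12 to 0.039 for Mcm6, -0.24 to 0.11 for Tyms, -0.41 to 0.25 for Aurkb, -0.39 to 0.022 for Bub1, -0.35 to 0.24 for Cdc20 and -0.10 to 0.021 for Top2a. Without both number 4 libraries, Ccnd3 was at 0.0303, Mcm3 at 0.043, Top2a at 0.017 and Tyms at -0.19. Without the low-count filter, Mcm3 was at 0.048 and Tyms at -0.10. With 0 surrogate variables, 1 surrogate variable and lane as covariate, Mcm3 was at 0.0026, 0.0037 and 0.0016 and Tyms at -0.066, -0.035 and -0.056. The replicate block put Tyms at -0.026. DESeq2 size factors put Tyms at -0.0104 and Foxm1 at -0.0024, and DESeq2 put Foxm1 at -0.0039. None of these passed the threshold.

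Depth limits many of the members, among them most of the mitotic ones. With 12 of the 34 tested members under a mean count of 50, a call was not open to them under the rule, and intervals of their log2 fold changes reached beyond 0.40 in at least one direction. Exons of other genes cover over 10% of the exon bases of Ccnd1, Ube2c, Cdk4, Mcm7 and Ccna2 and, of the called further genes, of Cdkn1c, Orc2, Rfc2 and Rfc4. Of the 50-base windows of Ccnb1 and Pcna 23.4% and 19.1% occur in other genes. Both number 4 libraries hold high counts of markers of other cell types.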
